A study of Rattus norvegicus with 72 samples.

Results

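Lumbar dorsal root ganglia of rats with a proximal sciatic nerve lesion were compared between 28 h and 24 h, and ganglia of sham rats at the same hours served as the control for time. The arrays were taken by the lesion and hour in their labels, which gave 12 of the 72 arrays of the series, in 4 groups of 3. The groups were proximal lesion at 28 h, proximal lesion at 24 h, sham at 28 h and sham at 24 h, and the arrays of each carried the letters a, b and c. All groups were Wistar rats 8 to 12 weeks old with no genotype or drug named, and the ganglia were L4 and L5, with total RNA hybridized to Affymetrix rat arrays. The labels do not say what the letters stand for, whether an array holds 1 animal or a pool, or whether arrays of a group came from separate animals, so the p-values here measure only the spread between arrays, which may be technical. Values are log2 intensities per gene as the authors deposited them, and with 3 arrays a group their number limits the precision.

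Dorsal root ganglia house the sensory neurons of the body wall and limbs, wrapped in satellite glia, beside Schwann cells, vessels and resident macrophages. After a nerve is cut or crushed, these neurons switch to an injury programme, and leukocytes from the blood can enter the ganglion. Interferons act through Jak kinases and Stat transcription factors on a shared set of target genes, among them antiviral proteins, proteasome subunits for antigen processing and the chemokines that bind Cxcr3 on T cells and natural killer cells. Neutrophils and monocytes are known by granule proteins, calcium-binding S100 proteins and receptors for antibodies and bacterial products.

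The tissue label was checked against its markers. Nefl, the light neurofilament chain of large sensory neurons, measured 13.95, 13.87 and 13.86 in proximal 28 h arrays and 14.05, 13.91 and 13.98 in proximal 24 h arrays, near the top of the scale. The lesion labels were checked with Atf3, a transcription factor induced in axotomized neurons. Atf3 measured 12.22, 12.62 and 12.62 in proximal 28 h arrays a, b and c and 12.68, 12.57 and 12.11 in proximal 24 h arrays, against 10.16, 7.96 and 7.83 in sham 28 h arrays and 8.45, 9.30 and 10.16 in sham 24 h arrays, so every proximal array lay above every sham array, with sham 28 h array a and sham 24 h array c the nearest. Il6, an injury-induced cytokine of these neurons, separated the lesions more widely, at 7.13, 7.40 and 7.77 in proximal 28 h arrays and 7.88, 8.26 and 7.65 in proximal 24 h arrays, against 4.63, 4.20 and 4.27 in sham 28 h arrays and 4.25, 4.41 and 4.82 in sham 24 h arrays. The arrays of the series were clustered by dim probe sets, with the number of clusters fixed at 4, and the clusters are called technical sets here. All 12 arrays fell in 1 of these sets, together with 6 arrays of 1 h.

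At 28 h arrays b and c were nearly copies of each other within each lesion, and array a was not. Over the 12276 genes tested, the SD of the log2 difference between b and c was 0.143 at proximal 28 h, with 0 genes 2-fold or more apart. Array a of proximal 28 h differed from b with an SD of 0.266 and 90 such genes, and from c with an SD of 0.272 and 100 such genes. The proximal 24 h arrays differed pairwise with SDs of 0.292, 0.333 and 0.348. At sham 28 h, b and c had an SD of 0.126 and 0 genes 2-fold apart, while the pairs with a had SDs of 0.253 and 0.266. The sham pair was the closest and the proximal pair the next closest among the 2556 pairs of all 72 arrays, and the median over the 83 pairs within a group was 0.274. The 3′ minus 5′ log2 difference of hexokinase, larger where RNA is shorter, was highest in array a at 28 h. It was 2.15, 1.58 and 1.68 in proximal 28 h arrays a, b and c and 3.04, 1.79 and 1.75 in sham 28 h arrays. At 24 h it was 2.46, 1.14 and 2.13 in proximal arrays and 2.58, 2.24 and 2.59 in sham arrays. Its part in the gap between array a and the other arrays was not tested. Whether b and c came from 1 RNA extract is not given in the labels, so the calls of each comparison and of each list with a call are also counted with b and c averaged to 1 array in both lesions.

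**Figure D1:**
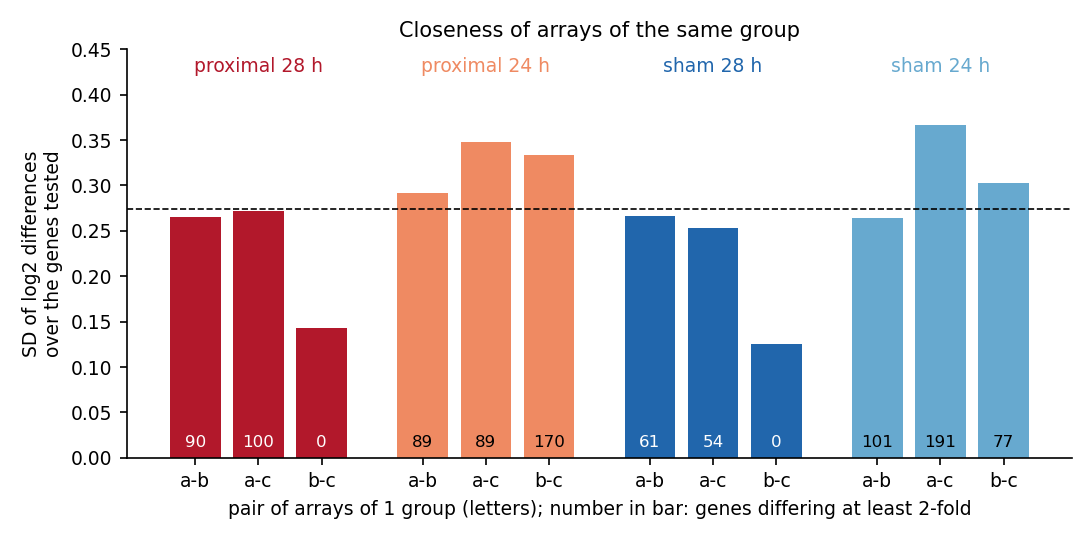
SD over 12276 genes of the log2 difference between 2 arrays of a group (bars), for the 3 pairs of letters in proximal 28 h, proximal 24 h, sham 28 h and sham 24 h arrays, with the count of genes 2-fold or more apart in each bar and the median of 83 pairs within a group (0.274) as the dashed line. The b and c bars at 28 h reach 0.143 for proximal and 0.126 for sham, below every other pair shown.

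Between 28 h and 24 h after the proximal lesion, genes on interferon, chemokine and myeloid cell lists rose, and other genes, led by Leng8, Ryr3 and Pnisr, fell. The largest rises were in Ubd, Ifit3, Cxcl11, Slpi and Cxcl10. Arrays b and c carried most of the size of these rises. Array a was below both of them in 77 of the 77, and above all 3 of the 24 h arrays in 43. The falls stood in all 3 arrays, and each of those genes also had a lower mean at 28 h in sham ganglia. In sham ganglia no gene of an immune list was called, where only 1 of all 12276 genes (0.00815%) was.

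Of 12276 genes, limma called 161 (1.31%) at an adjusted p under 0.05 in proximal ganglia, 77 higher (0.627%) and 84 lower (0.684%) at 28 h than at 24 h, with 1342 (10.9%) at an unadjusted p under 0.05. In sham ganglia 1 gene was called (0.00815%), with 573 (4.67%) at an unadjusted p under 0.05. With b and c averaged to 1 array the proximal comparison called 8 genes (0.0652%), 4 higher (0.0326%) and 4 lower (0.0326%), with 874 (7.12%) at an unadjusted p under 0.05. The 153 calls lost that way had adjusted p between 0.0601 and 0.434. With proximal 28 h array a alone against the 24 h arrays, limma called 0 genes, and 333 had an unadjusted p under 0.05. The count was 5 without array b, 13 without array c and 24 without proximal 24 h array a, and it was 228 without proximal 28 h array a.

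The 8 genes called with b and c as 1 array are named for that result. Those higher at 28 h were Ubd (adjusted p = 0.00599), Saa3 (0.013), Slpi (0.013) and S100a9 (0.0431). Those lower were Abca5 (adjusted p = 0.013), a lipid transporter, Scn11a (0.0431), the Nav1.9 sodium channel of nociceptors, Ltn1 (0.0457), a ubiquitin ligase of stalled ribosomes, and Apeg3 (0.0457), a noncoding transcript antisense to Peg3.

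The 77 rises and the 84 falls differed in how the arrays carried them. These are descriptions, since the genes were chosen by the same arrays. The mean over the 77 rises, relative to the proximal 24 h mean of each gene, was 0.24, 1.72 and 1.79 in proximal 28 h arrays a, b and c. For 45 of the 77 both b and c lay at least 1 log2 unit above array a, against 80 of all genes (0.652%), and all 77 had array a below both. Array a lay above all 3 of the 24 h arrays in 43 of the 77 (55.8%, against 14.7% of all genes), within their range in 26 (against 51.6% of all genes) and below them in 8. Of the 38 rises on an immune list, 16 had array a above the 24 h arrays. In 62 of the 77, b and c were the 2 highest of all 72 arrays, against 240 (1.96%) of all genes. The mean over the 84 falls was -0.75, -0.88 and -0.78 in arrays a, b and c, and array a lay below all 3 of the 24 h arrays in 84 of 84. Over all genes, the 28 h arrays lay all above the 24 h arrays in 882 (7.18%) and all below in 2242 (18.3%) after the proximal lesion, against 731 (5.95%) and 1066 (8.68%) in sham. Array a alone lay above the proximal 24 h arrays in 1808 genes and below them in 4128 (33.6%).

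**Figure D2:**
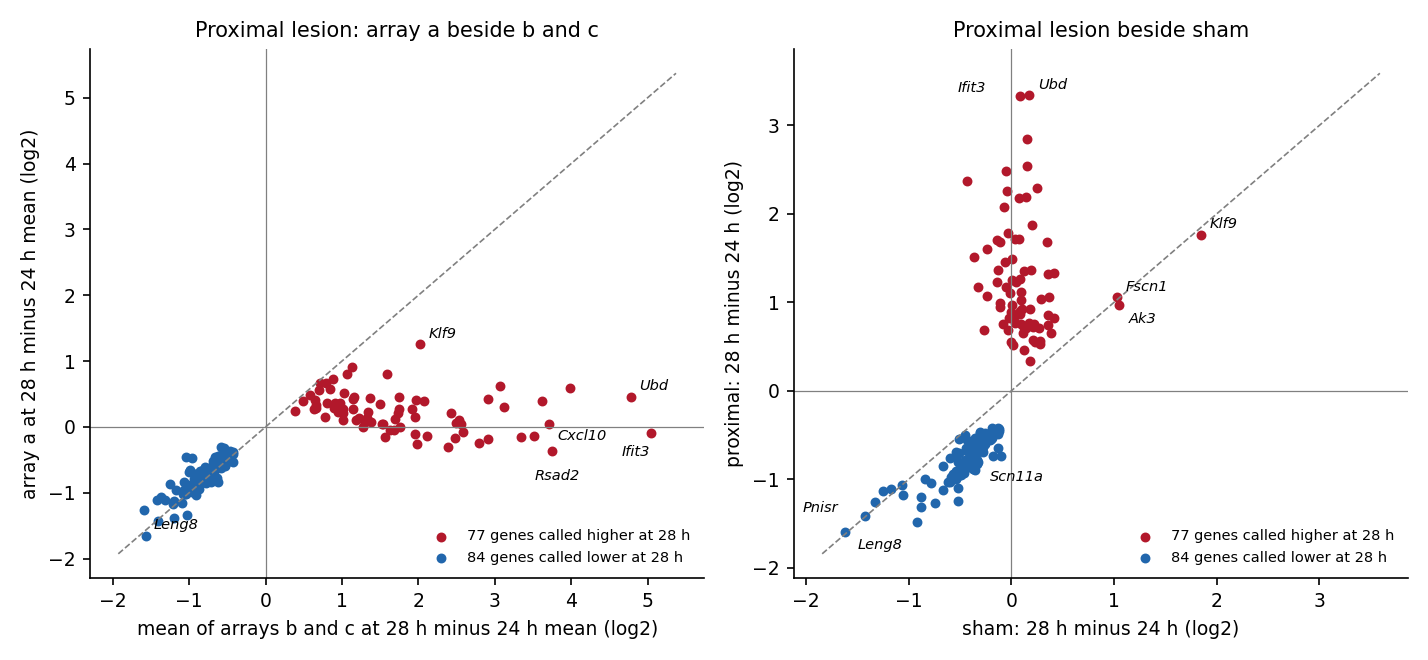
Log2 differences of 28 h minus 24 h for the 77 genes called higher (red) and the 84 called lower (blue) after the proximal lesion, one point per gene, as array a against the mean of b and c (left) and as proximal against sham (right), with dashed lines of equality. The rises lie under the line on the left, with a median of 0.25 in array a, against 1.52 in b and c. Many lie far under it and some, such as Ak3 and Fscn1, close to it. For sham on the right the rises lie around 0 (median 0.09). The falls lie along the line on the left and below 0 in sham (median -0.42).

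Interferon-induced genes made up the largest immune group of the rises. Of 42 genes on the list 33 had a named probe set and 31 were tested. Of these, 13 rose and 0 fell, against 0.627% and 0.684% of all genes. The median log2 difference over the 31 was 0.72 in proximal ganglia and -0.01 in sham ganglia, against -0.02 and -0.01 over all genes. With b and c as 1 array limma called 0 of the 31, and 14 had an unadjusted p under 0.05. In a bulk tissue such as this, more cells that carry a transcript and more of the transcript per cell cannot be told apart.

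Ubd had the largest fitted log2 fold change, although that of Ifit3, the next, is a lower bound. Ubd was not on the list of 31 tested interferon response genes, so the counts of that list leave it out. It encodes the ubiquitin-like modifier FAT10 that marks proteins for the proteasome and is induced by interferon gamma and tumour necrosis factor. Ubd measured 7.74, 11.99 and 12.15 in proximal 28 h arrays a, b and c, against 7.19, 7.37 and 7.29 in proximal 24 h arrays. Arrays b and c stood more than 4 log2 units above array a, which lay just above the 24 h range, so the groups did not overlap. The log2 fold change was 3.34 (SE 0.45, limma adjusted p = 8.22e-06), a 10.1-fold rise. Sham 28 h arrays measured 7.46, 7.54 and 7.56, against 7.22, 7.60 and 7.22 in sham 24 h arrays.

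Ifit3, an antiviral protein that binds foreign RNA together with other Ifit proteins, measured 5.20, 10.34 and 10.31 in proximal 28 h arrays and 5.55, 5.36 and 4.95 in proximal 24 h arrays. Array a lay within the 24 h range and arrays b and c about 5 log2 units above it, so the groups overlapped through array a. Since the 24 h mean lay below the filter level of 5.46 log2, the fold is a lower bound, at least 8.887-fold higher (log2 fold change 3.33, SE 0.59, limma adjusted p = 0.000755, and 0.0922 with b and c as 1 array). Sham ganglia measured 4.79, 5.16 and 5.40 at 28 h and 5.42, 4.98 and 4.72 at 24 h.

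Irf7, the transcription factor that amplifies type I interferon, measured 8.20, 10.82 and 10.91 in proximal 28 h arrays, against 8.20, 8.27 and 8.35 in proximal 24 h arrays. Arrays b and c stood apart and array a lay within the 24 h range (log2 fold change 1.70, SE 0.35, limma adjusted p = 0.00465, 0.196 with b and c as 1). Mx1, a dynamin-like antiviral GTPase, measured 8.05, 10.72 and 10.66 in proximal 28 h arrays, against 8.10, 8.21 and 8.33 in proximal 24 h arrays, with a log2 fold change of 1.60 (SE 0.34, limma adjusted p = 0.00506). Igtp, a GTPase induced by interferon gamma, measured 6.65, 9.56 and 9.82 in proximal 28 h arrays, against 6.74, 7.08 and 6.87 in proximal 24 h arrays, with a log2 fold change of 1.78 (SE 0.38, limma adjusted p = 0.00625). For Mx1 and Igtp array a lay below the lowest 24 h array, so the rise stood in b and c. With array a alone against 24 h the difference turned negative for 16 of the 77 rises, among them Rsad2 (-0.37), Isg15 (-0.19), Ly6c (-0.14), Ifit3 (-0.090), Irf7 (-0.075), Mx1 (-0.16), Igtp (-0.25), Irf1 (-0.13), Tap1 (-0.11) and Cmpk2 (-0.046). The median of that difference was 0.25 over the 77 rises and -0.055 over all genes.

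Further called members of the list were Irf1, which drives interferon gamma targets, Oas1a, a sensor of double-stranded RNA, Irgm, an immunity-related GTPase, and Cmpk2, a mitochondrial nucleotide kinase. Irf1 measured 7.22, 9.40 and 9.54 in proximal 28 h arrays, against 7.10, 7.40 and 7.57 in proximal 24 h arrays (log2 fold change 1.37, adjusted p = 0.0047, limma). Oas1a measured 7.35, 9.01 and 8.96 in proximal 28 h arrays, against 6.96, 7.23 and 7.03 in proximal 24 h arrays (1.37, adjusted p = 0.00471, limma), and its array a also lay above the 24 h arrays. Rsad2, Isg15, Ifit2, Rtp4 and Oasl also rose and are named after their values were seen. Rsad2, the antiviral enzyme viperin, measured 7.73, 11.79 and 11.89 in proximal 28 h arrays, against 8.01, 7.87 and 8.41 in proximal 24 h arrays, with array a below all 3 of 24 h (2.37, SE 0.60, limma adjusted p = 0.0243). Isg15, a ubiquitin-like modifier, measured 7.93, 10.96 and 11.09 in proximal 28 h arrays, against 8.09, 8.04 and 8.22 in proximal 24 h arrays (1.87, SE 0.48, limma adjusted p = 0.0276). In sham ganglia Rsad2 measured 7.47, 8.41 and 8.26 at 28 h and 9.62, 8.34 and 7.49 at 24 h, and its sham 24 h array a was higher than the other 5 sham arrays.

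Some members had large differences that did not pass. Gbp2, a guanylate-binding GTPase, measured 8.72, 11.93 and 12.00 in proximal 28 h arrays and 9.50, 9.80 and 9.44 in proximal 24 h arrays (log2 fold change 1.31, SE 0.40, adjusted p = 0.0858, limma). Its array a was the lowest of the 6 while b and c were the highest. Over the 31 members, the mean relative to the proximal 24 h mean was -0.13, 1.43 and 1.49 in proximal 28 h arrays a, b and c, against -0.02, 0.01 and 0.01 in proximal 24 h arrays. In sham it was -0.34, -0.14 and -0.15 at 28 h and -0.03, -0.10 and -0.33 at 24 h. Thus b and c averaged 1.59 above array a, and array a itself lay slightly under the 24 h arrays. In 23 of the 31 members b and c were the 2 highest of all 72 arrays.

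**Figure D3:**
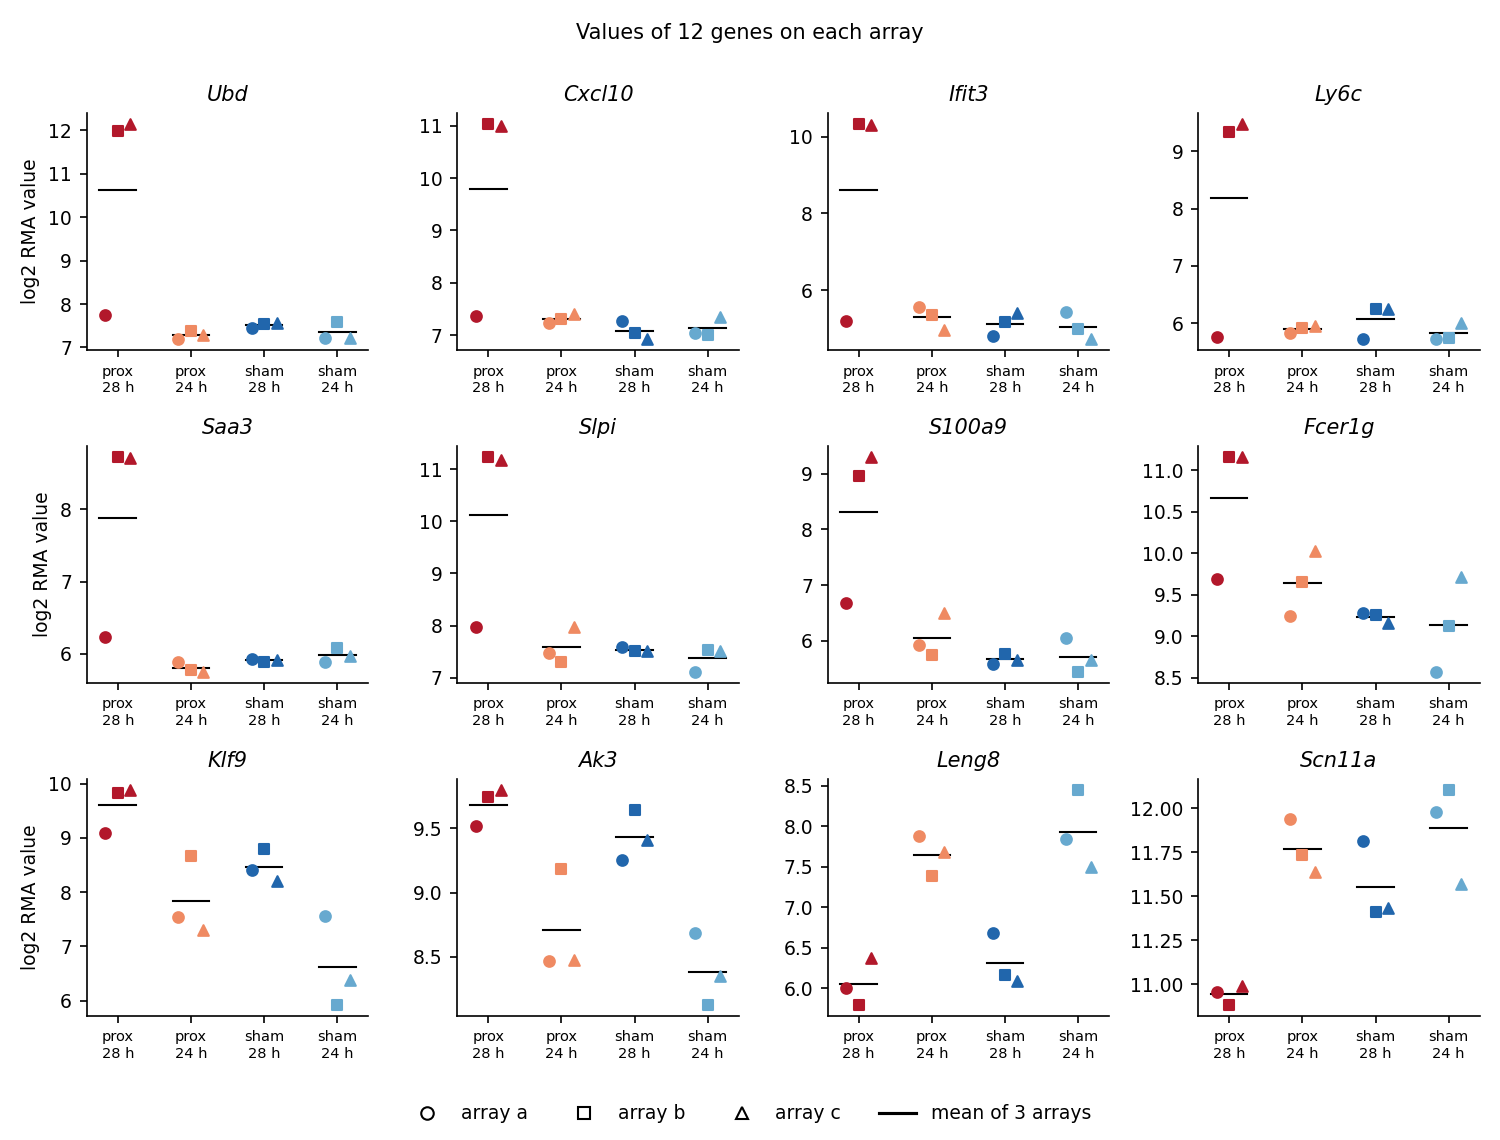
Log2 intensity of 12 genes in the proximal 28 h, proximal 24 h, sham 28 h and sham 24 h arrays (left to right; circle a, square b, triangle c, line the mean of 3 arrays; the axes do not start at 0). In immune genes such as Ubd (7.74, 11.99 and 12.15 in proximal 28 h arrays a, b and c, against 7.19, 7.37 and 7.29 in proximal 24 h arrays) array a sits near the 24 h arrays while b and c sit far above, and in Leng8 all 3 arrays sit below those of 24 h.

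Promoter windows were read for the called genes to show the element that interferon-activated factors bind. Windows of RefSeq genes (build GRCr8) ran from 250 bases before to 50 after the start and were held for 62 of the 77 rises and 72 of the 84 falls. The interferon-stimulated response element was searched as GAAANNGAAA and its reverse complement TTTCNNTTTC, which covers both strands, and the gamma-activated site as TTCNNNGAA, which is its own reverse complement. The response element letters stood in 20 of 62 windows of the rises (32.3%) and in 1 of 72 windows of the falls (1.39%), against 3.03% of the 10155 tested genes with a window and 4.12% of all 27457 windows. The gamma-activated letters stood in 11 windows of the rises (17.7%) and 5 of the falls (6.94%), against 7.21% of tested genes and 9.39% of all windows. A match is only these letters in this window, and a window without them says nothing about the factor. The 80 bases around the first match are printed for 5 of the genes described here, each 5′ to 3′ on the strand of the gene with the response element in capitals. They lie at chr1:241527246-241527325 (plus strand, Ifit3), chr14:15988816-15988895 (plus, Cxcl10), chr6:48788223-48788302 (minus, Rsad2), chr10:42874909-42874988 (plus, Igtp) and chr1:205800048-205800127 (minus, Irf7), all upstream of the start. Counted from the start, with -1 the base before it, the element begins at -44 in Ifit3, -243 in Cxcl10, -147 in Rsad2, -103 in Igtp and -69 in Irf7.
Ifit3: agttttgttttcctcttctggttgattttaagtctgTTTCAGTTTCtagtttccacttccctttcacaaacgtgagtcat
Cxcl10: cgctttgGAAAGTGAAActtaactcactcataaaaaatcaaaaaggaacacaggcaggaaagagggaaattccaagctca
Rsad2: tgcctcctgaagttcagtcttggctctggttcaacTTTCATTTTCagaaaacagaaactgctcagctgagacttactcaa
Igtp: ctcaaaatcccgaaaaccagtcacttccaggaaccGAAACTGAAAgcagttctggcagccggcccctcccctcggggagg
Irf7: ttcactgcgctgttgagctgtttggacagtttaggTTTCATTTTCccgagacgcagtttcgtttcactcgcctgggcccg
Ubd and Cxcl11, which rose as far, had no response element letters in their windows, and the 80 bases before each start are shown for comparison, at chr20:1392686-1392765 (minus strand, Ubd) and chr14:15973648-15973727 (plus, Cxcl11).
Ubd: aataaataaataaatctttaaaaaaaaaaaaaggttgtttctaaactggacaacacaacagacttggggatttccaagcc
Cxcl11: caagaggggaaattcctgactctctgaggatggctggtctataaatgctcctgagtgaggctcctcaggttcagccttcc

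Some genes of MHC class I and antigen processing rose. Of 25 on the list 19 were named and 18 tested, and of these 4 rose and 0 fell, against 0.627% and 0.684% of all genes, with a median log2 difference of 0.40 in proximal and -0.02 in sham ganglia. Limma called 0 of the 18 with b and c as 1 array, and 5 had an unadjusted p under 0.05. The 4 were RT1-S3, a class I gene, Tap1, a peptide transporter into the endoplasmic reticulum, Psmb8, an immunoproteasome subunit, and Tapbp, the tapasin that loads peptides. RT1-S3 measured 8.43, 10.55 and 10.75 in proximal 28 h arrays, against 7.98, 8.39 and 8.30 in proximal 24 h arrays, with array a just above the 24 h range (log2 fold change 1.68, SE 0.31, adjusted p = 0.00104, limma). Class I genes are near-identical copies, so the probes of RT1-S3 may read other members. Tap1 measured 7.37, 9.34 and 9.53 in proximal 28 h arrays, against 7.52, 7.53 and 7.39 in proximal 24 h arrays (1.27, SE 0.30, adjusted p = 0.0125, limma). Psmb8 measured 7.93, 9.56 and 9.82 in proximal 28 h arrays, against 7.58, 8.11 and 8.09 in proximal 24 h arrays (1.18, adjusted p = 0.02, limma). Psmb9, the partner subunit, measured 7.72, 10.10 and 10.19 in proximal 28 h arrays and 7.72, 8.08 and 8.29 in proximal 24 h arrays and did not pass (adjusted p = 0.0682, limma).

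Some chemokines that attract leukocytes rose. Of 44 chemokine and cytokine genes 43 were named and 29 tested, 5 rose and 0 fell, against 0.627% and 0.684% of all genes, and the median log2 difference was 0.26 in proximal and 0.01 in sham ganglia. None of the 29 was called by limma with b and c as 1 array, when 9 had an unadjusted p under 0.05. The 5 were Cxcl9, Cxcl10 and Cxcl11, which are the ligands of Cxcr3, Ccl7, a monocyte attractant, and Il1b, an inflammatory cytokine. Cxcl11 measured 6.78, 10.12 and 10.22 in proximal 28 h arrays, against 5.85, 6.07 and 6.65 in proximal 24 h arrays (log2 fold change 2.85, SE 0.53, limma adjusted p = 0.00145). Cxcl10 measured 7.36, 11.03 and 11.00 in proximal 28 h arrays, against 7.23, 7.31 and 7.40 in proximal 24 h arrays (2.49, SE 0.46, limma adjusted p = 0.00131). Cxcl9 measured 6.49, 9.29 and 9.33 in proximal 28 h arrays, against 5.77, 6.50 and 6.27 in proximal 24 h arrays (2.19, SE 0.38, limma adjusted p = 0.000548). Array a lay above the 24 h arrays for Cxcl11 and within their range for Cxcl9 and Cxcl10, and b and c stood far above all of them. Cxcr3, the receptor, lay under the filter level on every one of the 12 arrays, at 5.16, 5.13 and 5.07 in proximal 28 h arrays and 4.86, 4.63 and 4.80 in proximal 24 h arrays.

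Il1b measured 6.24, 7.39 and 7.57 in proximal 28 h arrays, against 6.23, 6.10 and 6.19 in proximal 24 h arrays (0.89, SE 0.21, limma adjusted p = 0.015). Ccl7 measured 6.92, 8.46 and 8.53 in proximal 28 h arrays, against 6.57, 6.95 and 6.86 in proximal 24 h arrays (1.18, SE 0.27, limma adjusted p = 0.0105). Both stood highest in b and c. Ccl2, the best-known monocyte attractant, measured 9.88, 11.03 and 11.15 in proximal 28 h arrays and 10.74, 11.08 and 10.44 in proximal 24 h arrays, against 9.41, 9.06 and 8.87 in sham 28 h arrays and 9.70, 9.34 and 9.50 in sham 24 h arrays, and its log2 difference of -0.07 between the hours did not pass (adjusted p = 0.989, limma). Tnf measured 7.49, 7.49 and 7.35 in proximal 28 h arrays and 7.52, 7.15 and 7.41 in proximal 24 h arrays. Ifng, the gene of interferon gamma, lay under the filter level, at 4.24, 4.34 and 4.34 in proximal 28 h arrays and 4.24, 4.13 and 4.25 in proximal 24 h arrays. For neither did b and c stand apart.

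Neutrophil genes included some of the largest rises. Of 32 on the list 19 were named and 10 tested, 2 rose and 0 fell, against 0.627% and 0.684% of all genes and also with b and c as 1 array, and the median log2 difference of the 10 was 0.38 in proximal and -0.05 in sham ganglia. Slpi, a secreted inhibitor of neutrophil elastase that epithelial cells and macrophages also make, measured 7.98, 11.23 and 11.17 in proximal 28 h arrays, against 7.49, 7.30 and 7.98 in proximal 24 h arrays. The groups were separated only narrowly through array a (log2 fold change 2.54, SE 0.37, limma adjusted p = 3.49e-05). S100a9, a subunit of calprotectin and a major protein of neutrophil cytoplasm, measured 6.67, 8.95 and 9.30 in proximal 28 h arrays, against 5.92, 5.75 and 6.49 in proximal 24 h arrays (2.25, SE 0.36, limma adjusted p = 0.000224). Here array a also lay above all 3 of the 24 h arrays, and b and c lay more than 2 log2 units further up. In sham ganglia S100a9 measured 5.58, 5.77 and 5.65 at 28 h and 6.04, 5.44 and 5.66 at 24 h.

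Other neutrophil genes were too dim over the series to be tested, and some of them stood out in the same arrays. Of those given here only S100a8 was taken by the naming rule. S100a8, the partner of S100a9 in calprotectin, measured 4.81, 6.81 and 6.78 in proximal 28 h arrays and 4.55, 4.45 and 4.60 in proximal 24 h arrays. Il1r2, the decoy receptor for interleukin 1, measured 5.36, 7.96 and 7.96 in proximal 28 h arrays and 5.33, 5.19 and 5.14 in proximal 24 h arrays. Csf3r, the receptor of granulocyte colony-stimulating factor, measured 5.07, 6.91 and 6.74 in proximal 28 h arrays and 4.99, 4.77 and 4.75 in proximal 24 h arrays. For these 3 array a lay near the 24 h arrays and b and c at least 1.6 above it, and no test was run. Camp, an antimicrobial granule peptide, measured 5.37, 5.45 and 5.28 in proximal 28 h arrays and 5.83, 5.29 and 4.93 in proximal 24 h arrays, with b and c level with array a. Mmp8, neutrophil collagenase, measured 4.51, 4.67 and 4.77 in proximal 28 h arrays and 5.0, 4.63 and 4.40 in proximal 24 h arrays, again level. The summed linear intensity over the 10 tested genes was 980 to 3656 in proximal 28 h arrays and 755 to 905 in proximal 24 h arrays, against 774 to 807 in sham 28 h arrays and 780 to 814 in sham 24 h arrays. Without Slpi and S100a9 the sum over the other 8 genes was 626 to 755 in proximal 28 h arrays and 544 to 605 in proximal 24 h arrays, and b and c lay above array a by 0.70 as a mean over the 10 genes but by 0.17 as a median, so a few genes carried the list. Whether leukocytes in the tissue account for any of the rises was not tested.

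Genes of monocytes and macrophages were also among the rises. Of 23 tested monocyte genes (24 named of 28) 6 rose and 0 fell, with a median log2 difference of 0.48 in proximal and 0.06 in sham ganglia. Of 27 tested resident macrophage genes (27 named of 30) 4 rose and 0 fell, with medians of 0.49 and 0.09. Over all genes 0.627% rose and 0.684% fell. Averaging b and c to 1 array left 0 calls by limma in both lists, with 13 monocyte and 10 macrophage genes at an unadjusted p under 0.05. Plac8, a cysteine-rich protein of myeloid cells, measured 8.40, 10.63 and 11.00 in proximal 28 h arrays, against 7.81, 8.14 and 8.91 in proximal 24 h arrays, so array a lay within the 24 h range (1.72, SE 0.34, limma adjusted p = 0.00291). Fcgr3a, an activating receptor for antibodies, measured 7.82, 9.30 and 9.48 in proximal 28 h arrays, against 7.49, 7.47 and 7.29 in proximal 24 h arrays, without overlap (1.45, SE 0.26, limma adjusted p = 0.000755). Cd14, the co-receptor for endotoxin, measured 7.82, 8.68 and 8.51 in proximal 28 h arrays, against 6.72, 6.84 and 7.46 in proximal 24 h arrays (1.33, SE 0.26, limma adjusted p = 0.00291). Cd14 differed from most genes here in that array a took a large part, and it also varied in sham, at 7.45, 6.83 and 6.73 at 28 h and 6.01, 6.16 and 7.62 at 24 h.

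The other called monocyte genes were Lyz2 (lysozyme), Alox5ap (needed for leukotriene synthesis) and Lst1. The called macrophage genes were Fcer1g, the signalling chain of Fc receptors, Mpeg1, the pore-forming perforin of macrophages, Ctss, a lysosomal protease of antigen processing, and Cd68, a lysosomal glycoprotein. Fcer1g measured 9.69, 11.16 and 11.16 in proximal 28 h arrays, against 9.25, 9.65 and 10.03 in proximal 24 h arrays (1.03, SE 0.22, limma adjusted p = 0.0069). Mpeg1 measured 8.67, 10.17 and 10.16 in proximal 28 h arrays, against 8.49, 8.63 and 8.76 in proximal 24 h arrays (1.04, SE 0.23, limma adjusted p = 0.00899). In both, b and c stood more than 1.4 above array a. Other resident macrophage genes did not pass, of which 3 are given here. Csf1r, the receptor on which these cells depend, measured 8.35, 8.38 and 8.36 in proximal 28 h arrays and 7.91, 8.05 and 8.54 in proximal 24 h arrays, with array a level with b and c. C1qa, a subunit of complement C1q, measured 9.23, 9.75 and 9.67 in proximal 28 h arrays and 8.72, 8.98 and 9.35 in proximal 24 h arrays. Aif1, a calcium-binding microglia and macrophage protein, measured 8.25, 8.93 and 9.09 in proximal 28 h arrays and 7.63, 8.31 and 8.13 in proximal 24 h arrays. Array a was below b and c for C1qa and Aif1, and over the 27 genes b and c averaged 0.56 above array a. None of these 3 passed the test (adjusted p = 0.325 for Aif1, 0.786 for Csf1r and 0.357 for C1qa, limma).

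Ly6c, named after its values were seen, is a surface protein of blood monocytes and endothelium in mice. It measured 5.76, 9.34 and 9.47 in proximal 28 h arrays, against 5.82, 5.92 and 5.96 in proximal 24 h arrays (2.29, SE 0.38, limma adjusted p = 0.000345). Array a lay just below the 24 h arrays and b and c lay more than 3 log2 units above. Endothelial genes as a list had 0 calls by limma among 14 tested, against 1.31% of all genes, with 1 at an unadjusted p under 0.05. Their mean relative to proximal 24 h was -0.02, 0.14 and 0.14 in proximal 28 h arrays a, b and c.

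Class II loading genes were among the rises as well. Of 13 tested members (15 named of 22) 2 rose and 0 fell, against 0.627% and 0.684% of all genes, with a median of 0.37 in proximal and 0.21 in sham ganglia. Neither was called by limma with b and c as 1 array, which left 0 of the 13, with 4 at an unadjusted p under 0.05. The 2 were RT1-DMa and RT1-DMb, which together load peptides onto class II molecules. RT1-DMa measured 8.39, 8.94 and 8.88 in proximal 28 h arrays, against 7.60, 8.00 and 8.05 in proximal 24 h arrays (0.85, SE 0.19, limma adjusted p = 0.0069), with all 3 arrays above those of 24 h. RT1-DMb measured 8.71, 9.17 and 9.34 in proximal 28 h arrays, against 8.30, 8.12 and 8.63 in proximal 24 h arrays (0.72, SE 0.15, limma adjusted p = 0.00556). RT1-Da, a classical class II chain, measured 9.26, 10.56 and 10.44 in proximal 28 h arrays and 8.92, 9.10 and 9.45 in proximal 24 h arrays and did not pass (adjusted p = 0.103, limma). Cd74, the invariant chain, measured 9.31, 10.04 and 10.09 in proximal 28 h arrays and 9.30, 9.13 and 9.55 in proximal 24 h arrays (adjusted p = 0.483, limma). In both, array a lay within the 24 h range and b and c above it.

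Saa3, an acute-phase apolipoprotein of macrophages and other cells, measured 6.23, 8.73 and 8.71 in proximal 28 h arrays, against 5.89, 5.77 and 5.75 in proximal 24 h arrays, and 5.93, 5.88 and 5.92 in sham 28 h arrays, against 5.89, 6.09 and 5.97 in sham 24 h arrays. Only b and c of proximal 28 h left the narrow band of the other 10 arrays (2.08, SE 0.31, limma adjusted p = 3.49e-05). It was the 1 acute-phase gene called among 13 tested, also with b and c as 1 array, while 0.627% of all genes were called higher. Timp1, an inhibitor of matrix proteases, measured 11.39, 12.45 and 12.52 in proximal 28 h arrays and 11.28, 11.33 and 11.40 in proximal 24 h arrays and did not pass (adjusted p = 0.0794, limma). Of 15 complement genes 1 rose, against 0.627% of all genes. Their median log2 difference was 0.03 in proximal and 0.10 in sham ganglia. The called gene was C5ar1, the receptor for the anaphylatoxin C5a. It measured 7.39, 7.98 and 8.02 in proximal 28 h arrays, against 6.99, 6.99 and 7.11 in proximal 24 h arrays (0.77, SE 0.16, limma adjusted p = 0.00472, and 0.123 with b and c as 1). C3, the central complement protein, measured 6.16, 7.70 and 8.02 in proximal 28 h arrays and 6.55, 6.46 and 6.55 in proximal 24 h arrays, with a below and b and c above all of the 24 h arrays (adjusted p = 0.159, limma).

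Lymphocyte and mast cell genes had no calls. Limma called 0 of 13 tested T cell and NK cell genes, 0 of 6 B cell and plasma cell genes and 0 of 7 mast cell genes. At an unadjusted p under 0.05 there were 1, 0 and 0. Of all genes 1.31% were called and 10.9% had such a p by limma. Lists this short could thus hold 0 calls without differing from other genes. The T and NK list averaged 0.18, 0.17 and 0.07 in proximal 28 h arrays a, b and c relative to proximal 24 h, and the B cell list 0.32, 0.12 and 0.04, in which array a was the highest. Cd3e, a chain of the T cell receptor complex, measured 6.48, 6.18 and 6.16 in proximal 28 h arrays and 6.30, 5.99 and 5.85 in proximal 24 h arrays. Its log2 difference was 0.23 (SE 0.29, adjusted p = 0.913, limma), and array a was the highest of the 6 proximal arrays. Cd79b, of the B cell receptor, lay under the filter level, at 5.16, 5.19 and 5.11 in proximal 28 h arrays and 5.13, 5.15 and 4.97 in proximal 24 h arrays. In these lists b and c, high in interferon and myeloid genes, were no higher than array a, apart from mast cell genes in b (0.15, against 0.10 in a).

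**Figure D4:**
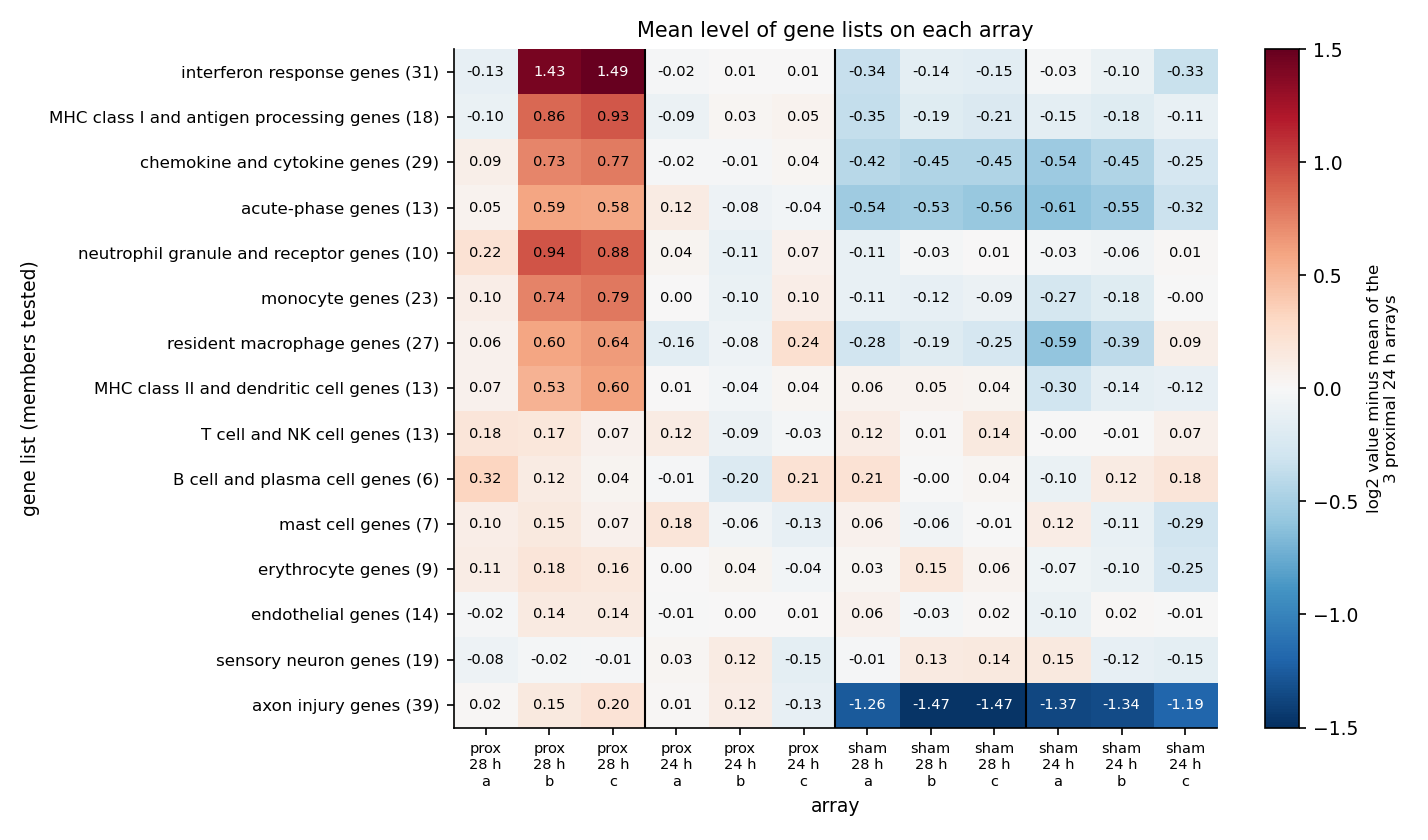
Mean over the tested genes of each list (rows, with the number tested) on each array (columns, proximal 28 h, proximal 24 h, sham 28 h and sham 24 h), as log2 relative to the proximal 24 h mean of each gene, printed in the cell and shown by colour. Arrays b and c of proximal 28 h reach 1.43 and 1.49 for interferon response genes, against -0.13 in array a, and lie between 0.04 and 0.17 for T cell, B cell and mast cell genes.

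Over all immune lists, 38 of the 77 rises (49.4%) were members, against 213 of the 12276 genes tested (1.74%), and 0 of the 84 falls were. The lists were drawn up with earlier results of these data known, so these shares describe the rises and support nothing further.

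Blood and muscle genes were examined since they can enter with dissected tissue. Hbb, beta globin, measured 11.63, 11.97 and 11.95 in proximal 28 h arrays and 10.56, 11.17 and 10.80 in proximal 24 h arrays, and 11.00, 11.47 and 11.18 in sham 28 h arrays and 10.01, 9.99 and 9.40 in sham 24 h arrays. The 28 h arrays lay above the 24 h arrays in both lesions, all 3 proximal arrays alike, and neither difference passed (adjusted p = 0.0866 in proximal and 0.115 in sham, limma). Alas2, the heme enzyme of red cell precursors, measured 7.60, 7.94 and 7.89 in proximal 28 h arrays and 7.04, 7.32 and 7.08 in proximal 24 h arrays (adjusted p = 0.206, limma). Myh1, a skeletal muscle myosin, measured 10.97, 11.39 and 11.29 in proximal 28 h arrays and 10.17, 10.77 and 10.33 in proximal 24 h arrays (adjusted p = 0.0682, limma). The erythrocyte list summed in linear intensity over 9 tested genes to 8640, 9066 and 9646 in proximal 28 h arrays a, b and c. In proximal 24 h arrays it summed to 8352, 8845 and 7735, so array a lay within their range and b and c above it. Of the 9, 1 was called and fell, against 0.684% of all genes. It was Tfrc, the transferrin receptor that many cells use to take up iron. Tfrc measured 11.51, 11.23 and 11.53 in proximal 28 h arrays, against 12.17, 12.00 and 11.72 in proximal 24 h arrays (-0.54, SE 0.14, limma adjusted p = 0.0274, and 0.196 with b and c as 1). The part of blood and muscle in the immune rises was not tested.

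A few rises were shared by array a and by sham ganglia. Klf9, a transcription factor induced by glucocorticoids and under clock control, measured 9.09, 9.82 and 9.89 in proximal 28 h arrays, against 7.54, 8.67 and 7.29 in proximal 24 h arrays (1.76, SE 0.41, limma adjusted p = 0.0125). In sham it measured 8.40, 8.79 and 8.21 at 28 h and 7.56, 5.92 and 6.37 at 24 h, a log2 difference of 1.85 that did not pass (SE 0.41, adjusted p = 0.115, limma). Ak3, a mitochondrial adenylate kinase and the 1 gene called in sham, measured 9.52, 9.74 and 9.80 in proximal 28 h arrays, against 8.47, 9.18 and 8.47 in proximal 24 h arrays (0.97, SE 0.20, limma adjusted p = 0.0047). In sham ganglia Ak3 measured 9.26, 9.64 and 9.41 at 28 h, against 8.68, 8.13 and 8.35 at 24 h (1.05, SE 0.20, limma adjusted p = 0.0432), and with b and c as 1 array limma called 0 genes in sham, with 276 at an unadjusted p under 0.05. Fscn1, which bundles actin and is named after its values were seen, measured 8.20, 8.39 and 8.47 in proximal 28 h arrays, against 7.78, 7.86 and 6.23 in proximal 24 h arrays (1.06, adjusted p = 0.0328, limma), and its sham log2 difference was 1.03.

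Glucocorticoid-responsive genes held 4 called members among 18 tested, Klf9, Mt2A, Nfkbia and Sgk1, and 0 that fell, against 0.627% and 0.684% of all genes. With b and c as 1 array 0 of the 18 were called by limma (adjusted p = 0.16 for Klf9, 0.132 for Mt2A, 0.279 for Nfkbia and 0.371 for Sgk1), and 6 had an unadjusted p under 0.05. Mt2A, a metal-binding protein, measured 10.46, 12.12 and 12.15 in proximal 28 h arrays, against 9.83, 9.93 and 10.42 in proximal 24 h arrays (1.51, SE 0.31, limma adjusted p = 0.00411). Nfkbia, the inhibitor of NF-kappaB, measured 7.97, 8.87 and 8.91 in proximal 28 h arrays, against 7.60, 7.51 and 7.47 in proximal 24 h arrays (1.06, SE 0.26, limma adjusted p = 0.0238). Sgk1, a kinase that regulates ion channels, measured 10.30, 10.94 and 10.93 in proximal 28 h arrays, against 10.01, 9.83 and 10.07 in proximal 24 h arrays (0.76, SE 0.20, limma adjusted p = 0.0437). In all 4 genes array a lay above the 24 h arrays and below b and c. Mt2A and Nfkbia are also induced in inflammation.

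The 84 falls had another pattern over the arrays. Their median log2 difference was -0.76, and 17 fell 2-fold or more. In sham ganglia the same 84 genes were lower at 28 h in 84 of 84 cases, with a median of -0.42 and a range from -1.62 to -0.10, while 6542 of all 12276 genes were lower in sham. None of the 84 was called in sham, and none was called in the difference between the lesions. By array, their mean relative to proximal 24 h was -0.29, -0.63 and -0.61 in sham 28 h arrays a, b and c and 0.13, 0.23 and -0.45 in sham 24 h arrays, so sham 24 h array c lay among the 28 h arrays. In proximal 24 h arrays it was 0.24, -0.08 and -0.16, highest in array a, and without that array 3 falls were called.

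Leng8 fell furthest. It measured 6.0, 5.79 and 6.37 in proximal 28 h arrays, against 7.88, 7.39 and 7.68 in proximal 24 h arrays, with a gap of 1 log2 unit between the groups (-1.60, SE 0.39, limma adjusted p = 0.0174). In sham it measured 6.68, 6.16 and 6.09 at 28 h and 7.85, 8.45 and 7.50 at 24 h, a log2 difference of -1.62 (SE 0.39, adjusted p = 0.156, limma). A further Leng8 probe set that passed the filter differed by 0.07 in proximal ganglia and one of Rsrp1 by 0.32, the 2 exceptions among 17 further probe sets of called named genes. The other 15 went the way of the probe set used, 6 of them called.

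Pnisr, Clk1, Rsrp1 and Gas5 are given together for their roles around RNA, a grouping made after the values were seen and not tested as a theme. Pnisr, a nuclear speckle protein, measured 7.22, 7.06 and 7.40 in proximal 28 h arrays, against 8.95, 8.57 and 8.41 in proximal 24 h arrays (-1.42, SE 0.33, limma adjusted p = 0.0129). Clk1, a kinase of SR splicing factors, measured 9.40, 9.50 and 9.68 in proximal 28 h arrays, against 11.35, 10.81 and 10.19 in proximal 24 h arrays (-1.26, SE 0.31, limma adjusted p = 0.0214). Rsrp1, an arginine- and serine-rich protein, measured 9.92, 9.78 and 9.93 in proximal 28 h arrays, against 11.73, 10.98 and 10.44 in proximal 24 h arrays (-1.17, SE 0.32, limma adjusted p = 0.0462). Sham differences were -1.42 for Pnisr, -1.33 for Clk1 and -1.06 for Rsrp1, about the same size. Clk4, Srrm2, Son and Arglu1 fell as well. Gas5, a noncoding host of small nucleolar RNAs, measured 8.48, 8.68 and 8.88 in proximal 28 h arrays, against 10.13, 9.69 and 9.61 in proximal 24 h arrays (-1.13, SE 0.29, limma adjusted p = 0.0259). A dimmer probe set of Gas5 fell further (-2.37, limma adjusted p = 0.0111 with every probe set as its own row).

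Ryr3, Prkdc and Dync1h1 encode very large proteins and are also put together after their values were seen, with no test of protein size. Ryr3, a calcium release channel, measured 6.52, 6.06 and 6.33 in proximal 28 h arrays, against 8.11, 7.84 and 7.42 in proximal 24 h arrays (-1.49, SE 0.34, limma adjusted p = 0.0111). Prkdc, the DNA-dependent protein kinase, measured 7.41, 6.90 and 7.15 in proximal 28 h arrays, against 8.58, 8.21 and 8.05 in proximal 24 h arrays (-1.13, SE 0.24, limma adjusted p = 0.0069). Dync1h1, the heavy chain of the retrograde motor dynein, measured 11.30, 11.07 and 11.31 in proximal 28 h arrays, against 12.80, 12.22 and 11.76 in proximal 24 h arrays, and proximal 24 h array a was the highest of these (-1.03, SE 0.21, limma adjusted p = 0.0047). Syne1, Mdn1, Kmt2c, Mycbp2 and Ahnak2 fell too. Control probe sets varied between the arrays beside these falls. The 3′ minus 5′ log2 difference of beta-actin, larger where RNA is shorter, was 0.88, 0.53 and 0.64 in proximal 28 h arrays. It was 1.26, 0.61 and 1.71 in proximal 24 h arrays, of which array b lay within the 28 h range. In sham it was 1.18, 0.60 and 0.62 at 28 h and 0.95, 2.21 and 1.47 at 24 h. The spiked poly-A control dap measured 4.27 in proximal 24 h array a and 4.78 in sham 24 h array a, against 7.72 to 10.17 in the other 10. Their part in the falls was not tested.

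Sodium channels of sensory neurons were among the falls. Of 26 tested nociceptor genes (27 named of 30) 2 fell and 0 rose, against 0.684% and 0.627% of all genes. The 2 were Scn11a and Scn10a, which encode the tetrodotoxin-resistant channels Nav1.9 and Nav1.8. Scn11a measured 10.96, 10.88 and 10.99 in proximal 28 h arrays, against 11.94, 11.73 and 11.64 in proximal 24 h arrays, without overlap and with little spread among the 28 h arrays (-0.83, SE 0.16, limma adjusted p = 0.00158). In sham it measured 11.81, 11.41 and 11.43 at 28 h and 11.98, 12.10 and 11.57 at 24 h. Scn10a measured 10.95, 10.88 and 10.90 in proximal 28 h arrays, against 11.56, 11.41 and 11.16 in proximal 24 h arrays (-0.47, SE 0.12, limma adjusted p = 0.0328, and 0.216 with b and c as 1). Scn9a, which encodes Nav1.7, measured 10.39, 10.28 and 10.32 in proximal 28 h arrays and 11.10, 10.92 and 10.71 in proximal 24 h arrays and did not pass (adjusted p = 0.158, limma). Scn1a and the GABA receptor subunit Gabrb2 also fell and are named after their values were seen.

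Genes of the neuronal injury programme had 1 call between the hours. Of 39 tested axon injury genes (42 of 42 named) 1 rose and 0 fell, against 0.627% and 0.684% of all genes. That count does not set the list apart from other genes. By limma 4 had an unadjusted p under 0.05, against 10.9% of all genes. The called gene was Ecel1, an endopeptidase induced in injured neurons. Ecel1 measured 6.72, 6.77 and 6.77 in proximal 28 h arrays, against 5.99, 6.08 and 6.11 in proximal 24 h arrays, with no overlap and array a close to b and c (0.69, SE 0.15, limma adjusted p = 0.0069, and 0.0922 with b and c as 1). Atf3 differed by 0.03 (SE 0.51, adjusted p = 0.995, limma) and Il6 by -0.50 (SE 0.39, adjusted p = 0.771, limma). The list averaged 0.02, 0.15 and 0.20 in proximal 28 h arrays a, b and c relative to proximal 24 h, so b and c lay less than 0.2 above array a. Socs3, a feedback inhibitor of Stat3 signalling, measured 7.42, 8.17 and 8.22 in proximal 28 h arrays and 7.52, 8.07 and 7.08 in proximal 24 h arrays (adjusted p = 0.484, limma). Gfap, a filament of reactive satellite glia, measured 10.52, 11.05 and 11.11 in proximal 28 h arrays and 10.18, 10.57 and 10.71 in proximal 24 h arrays (adjusted p = 0.572, limma).

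Clock genes were checked because the hours lie 4 h apart. Limma called 0 of 18 in proximal ganglia, against 1.31% of all genes, with 1 at an unadjusted p under 0.05. Dbp, an output gene of the clock, measured 8.37, 8.25 and 8.26 in proximal 28 h arrays and 7.88, 8.46 and 7.49 in proximal 24 h arrays, and 6.82, 9.06 and 8.70 in sham 28 h arrays and 8.52, 8.33 and 7.68 in sham 24 h arrays, with sham 28 h array a well below the others. Per2, Nr1d1 and Bmal1 differed by -0.02, -0.21 and -0.20 in proximal ganglia, with adjusted p of 0.99, 0.924 and 0.867 by limma.

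Whether a change belonged to the lesion or to the passage of 4 h was asked by the difference of the 2 changes, proximal minus sham. Limma called 2 genes (0.0163%), both higher, with 160 (1.3%) at an unadjusted p under 0.05. Ubd differed by 3.17 on the log2 scale (SE 0.63, limma adjusted p = 0.0431) and Saa3 by 2.15 (SE 0.43, limma adjusted p = 0.0431). With b and c as 1 array limma called 0, with 91 at an unadjusted p under 0.05, and without proximal 28 h array a it called 65. Leaving out any 1 of the other 11 arrays, sham arrays included, gave 0 calls by limma, with 99 to 247 genes at an unadjusted p under 0.05. For the other rises a difference from sham was not shown, and the median over the 77 was 1.06 in proximal and 0.09 in sham ganglia.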

How the data were processed

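The authors deposited log2 values per probe set made with RMA, per the submitters' processing notes; its version, and whether all 72 arrays were normalized together, are not given in the sources used here. RNA came from a Qiagen RNeasy kit and was biotin-labelled, per the labels. Of 31099 probe sets 57 controls were left out, and 20826 had 1 gene symbol in the platform annotation, 436 several and 9780 none. Each of 14217 named genes was represented by its brightest probe set over all arrays, and 12276 passed a filter at the 25th percentile (5.46 log2). RMA and this filter compress differences of dim genes.

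Limma 3.58.1 in R 4.3.3 (with data.table, version 1.17.8) fitted a model with 24 group means to the 72 arrays, leaving 48 residual degrees of freedom, with a variance trend and Benjamini-Hochberg adjustment over all genes, two-sided, called at 0.05. SE is the moderated standard error, from the spread pooled over all 24 groups. Levels of lists and promoter letters were computed in Python 3.11.15 (pandas 2.3.3, numpy 2.4.6). Genes were named by rule. It took the 12 largest rises and 12 largest falls whose arrays did not overlap, and the called genes of the other comparisons. It also took 4 tested members per list (up to 8 of immune lists) ranked by p, and 25 names whatever their values. Untested genes beyond these 25, such as Il1r2, Csf3r, Camp, Mmp8, Cxcr3 and Ifng, were outside the rule. Others are marked in the text. The comparison, members, lists and rule were chosen with earlier results of these data known. Array letters were not taken to pair the samples: deviations of same-lettered arrays correlated at 0.06, 0.18 and -0.09 (a, b, c) between the hours in proximal and -0.25, -0.31 and -0.0020 in sham, and between proximal and sham at 0.30, 0.16 and 0.09 at 28 h and 0.28, -0.31 and 0.58 at 24 h, so not every pair was above 0.1.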

Additional observations from a re-analysis of the deposited data

Results flagged for a closer look

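The change between 28 h and 24 h differed between proximal and sham ganglia by a test of the difference itself in 2 genes. Ubd changed by 3.17 more on the log2 scale after the proximal lesion than in sham, and Saa3 by 2.15 more, each with a limma adjusted p of 0.0431. In both genes arrays b and c of proximal 28 h were the highest of all 72 arrays, and neither call held with b and c as 1 array. Limma also called 0 genes in the difference when any 1 array other than proximal 28 h array a was left out (99 to 247 at an unadjusted p under 0.05), with the 12 arrays alone (324), with the 50th percentile filter (99), with the array letter as a block (174) and with every probe set (185).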

How the results depend on the processing

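The 161 calls in proximal ganglia became 416 with another quantile normalization, 1874 with array weights, 845 with the technical set as a block, 8 with b and c as 1 array, 0 with array a alone and 26 without both 24 h arrays of letter a, and ran from 5 to 228 with 1 array left out. The last 3 settings were added after seeing the data, and the array weights gave b and c at 28 h 3.94 and 2.49 in proximal and 3.40 and 5.40 in sham, against 0.877 and 0.650 for array a. Fitted to the 12 arrays alone, 188 were called, of which 55 were shared, 34 higher and 154 lower. The 1 sham call became 8 with quantile normalization, 10 with 12 arrays, 2663 with weights, 2 with the array letter as a replicate block, 32 with the set block, 4 without both letter a arrays, and 0 with every probe set (1104 at an unadjusted p under 0.05 by limma), with b and c as 1 (276) and with array a alone (543), and ran from 0 to 27. The 2 calls in the difference became 4 with quantile normalization, 129 with weights, 4 with the set block, and 0 with the 50th percentile filter (99 at an unadjusted p under 0.05 by limma), 12 arrays (324), the replicate block (174), every probe set (185), b and c as 1 (91), array a alone (17) and without both letter a arrays (211), and ran from 0, in 11 of 12 cases, to 65 without proximal 28 h array a. The replicate block gave 212 calls in proximal ganglia. The gap between b and c and array a over interferon genes, 1.59 as a mean, was 1.37 as a median, 1.51 without the filter and 1.55 to 1.62 with b or c left out. With array a alone the sign turned for 16 of the 77 rises, with Cmpk2 (-0.046), Ifit3 (-0.090), Igtp (-0.25), Irf1 (-0.13), Irf7 (-0.075), Mx1 (-0.16) and Tap1 (-0.11) among them. The median of array a minus the 24 h mean was 0.25 over the 77 rises and -0.055 over all genes. The neutrophil gap, 0.70 as a mean, was 0.17 as a median. The causes were not tested. With array letters of unknown meaning, 3 arrays a group and a close b and c pair, the calls among the immune rises rest largely on 2 arrays that may hold 1 extract, although array a lay above the 24 h arrays in 16 of the 38, and the depth of dim genes is limited by background signal.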

Other observations

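The lists for satellite glia, Schwann cells, general sensory neuron genes and skeletal muscle had 0 calls by limma after the proximal lesion, against 1.31% of all genes. Satellite glia genes (9 tested) had a median log2 difference of 0.03 in proximal and 0.04 in sham ganglia, with 3 at an unadjusted p under 0.05. Myelinating Schwann cell genes (12 tested) had medians of 0.15 in proximal and 0.16 in sham ganglia, with 1 such gene, and general sensory neuron genes (19 tested) -0.02 and 0.03, with 1 such gene. Skeletal muscle genes (13 tested) had the larger median in sham, 0.27 in proximal and 0.46 in sham ganglia, with 1 such gene in proximal ganglia.

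Some values fit no group above. Gzmb, the granzyme of cytotoxic lymphocytes, was too dim over the series to be tested, and measured 7.44, 7.33 and 7.42 in proximal 28 h arrays and 6.12, 5.90 and 6.74 in proximal 24 h arrays, with 4.99, 4.98 and 4.95 in sham 28 h arrays and 5.04, 4.87 and 7.08 in sham 24 h arrays. All 3 proximal 28 h arrays lay above those of 24 h, array a as high as b and c, and sham 24 h array c lay with the proximal arrays. The T and NK partners Prf1, at 5.67, 5.61 and 5.53 in proximal 28 h arrays and 5.48, 5.39 and 5.46 in proximal 24 h arrays, and Nkg7, at 6.40, 6.16 and 6.15 in proximal 28 h arrays and 6.18, 5.84 and 6.02 in proximal 24 h arrays, stayed within a narrow range. These genes were chosen after their values were seen.

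RT1-T24-4, a nonclassical class I gene, measured 9.71, 10.09 and 10.21 in proximal 28 h arrays and 9.12, 8.82 and 9.16 in proximal 24 h arrays. In sham it measured 8.27, 6.29 and 6.43 at 28 h and 8.59, 8.28 and 8.85 at 24 h, so sham 28 h arrays b and c lay about 2 log2 units below the other sham arrays. Fcgr2b, the inhibitory antibody receptor, measured 6.46, 8.61 and 9.0 in proximal 28 h arrays and 6.01, 5.90 and 7.49 in proximal 24 h arrays, and 5.15, 5.01 and 4.93 in sham 28 h arrays and 4.45, 4.75 and 7.83 in sham 24 h arrays. Array c was the highest 24 h array in both lesions for this gene.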
